A study of Bos taurus with 6 samples.

Results

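The genes described here make cholesterol and fatty acids or control their making: 38 bovine genes, named from pathway knowledge and found on the array by their gene symbol. They carried 71 probes, among the 43794 gene probes of the array. Of these genes, 35 had a probe bright enough to test, among 10946 named genes tested in all. The cholesterol arm held 18 genes and the fatty acid arm 13, of which 11 were tested. The other 7 members were 5 regulators and 2 genes of sterol transport and storage.

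Cholesterol is built from acetyl-CoA through mevalonate, the branched isoprenoid units, squalene and lanosterol, and fatty acids are built from the same acetyl-CoA by carboxylation, chain synthesis, elongation and desaturation. Both arms are under the transcription factors of the SREBP family, which the escort SCAP carries out of the endoplasmic reticulum when sterols are low and which INSIG proteins hold back when sterols are high. Granulosa cells, the cells that line the inside of the ovarian follicle, use cholesterol as the starting material of steroid hormones, and take it from lipoproteins, from stored esters or from their own synthesis.

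The vitamin group consisted of postpartum cows given 320 mg folic acid and 10 mg vitamin B12. The saline group received 0.9% physiological saline. Both were treated from 3 weeks before calving until day 57 ± 2 after it, and both had received injections of prostaglandin F2 alpha. Granulosa cells were aspirated 66 ± 2 h after the second of these injections from preovulatory follicles at least 12 mm across, or at a later collection around day 71 where none was found. The labels do not say whether a sample was 1 cow or a pool.

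Each array compared a vitamin sample with a saline sample in Cy5 and Cy3. The design states 3 biological replicates with a dye-swapped array for each, 6 arrays in all. A log2 ratio here is vitamins over saline, averaged over both arrays of a replicate, so a positive value is higher with vitamins. A level is the normalized log2 intensity of 1 group in 1 replicate, and errors are SDs over the 3 replicates. The arrays of replicate 1 were alone on their slide, while those of replicates 2 and 3 were together on another, so replicate 1 and its slide cannot be told apart.

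Of 15 listed granulosa genes 14 were tested, among them the follicle-stimulating hormone receptor FSHR and the inhibin subunit INHA, both over background in all 12 readings. The saline sample of replicate 1 stood apart. Its median granulosa marker level was 9.02, against 13.8 and 13.4 in the other saline samples and 11.7, 13.9 and 14.0 in the vitamin samples. Its median leukocyte marker level was 10.3 over 20 genes, where the vitamin samples had 8.04, 8.58 and 8.31 and the other saline samples 7.32 and 7.996. In such bulk samples, fewer cells of a type and less RNA per cell cannot be told apart.

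None of the 35 tested members passed an adjusted p of 0.05 in limma's test of the 3 replicate ratios. Neither did any of the 26713 probes tested, so the background was 0% called. The smallest adjusted p was 0.99977 among the brightest probes of the members and 0.870 among all probes. Among all tested probes of the members it was 0.985, on a dimmer probe of FDPS. With 3 replicates, an exact sign-flip test of a single gene cannot go below p = 0.25. Before adjustment, 1 member had a p under 0.05 in the higher direction, FDPS, where 2.89% of all genes did. In the lower direction there were 2, INSIG2 and ACSL3, where 3.26% of all genes did.

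Mean ratios were above 0 for 24 of 35 members, against 51.2% of all genes, or for 20 of 35 with arrays centred on their median in place of loess. Without replicate 1 the count was 15 of 35, against 54.6% of all genes. Ratios above 0 in all 3 replicates were seen in 4 members, FDPS, FDFT1, ACLY and FADS2, beside 12.7% of all genes. Ratios below 0 in all 3 were seen in 2, INSIG2 and ACSL3, beside 12.4% of all genes. Both shares of members were near or under those backgrounds. On the single arrays, FADS2 was above 0 on all 6, as were 5.02% of all genes, and INSIG2 and ACSL3 were below 0 on all 6, as were 5.19%.

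**Figure D1:**
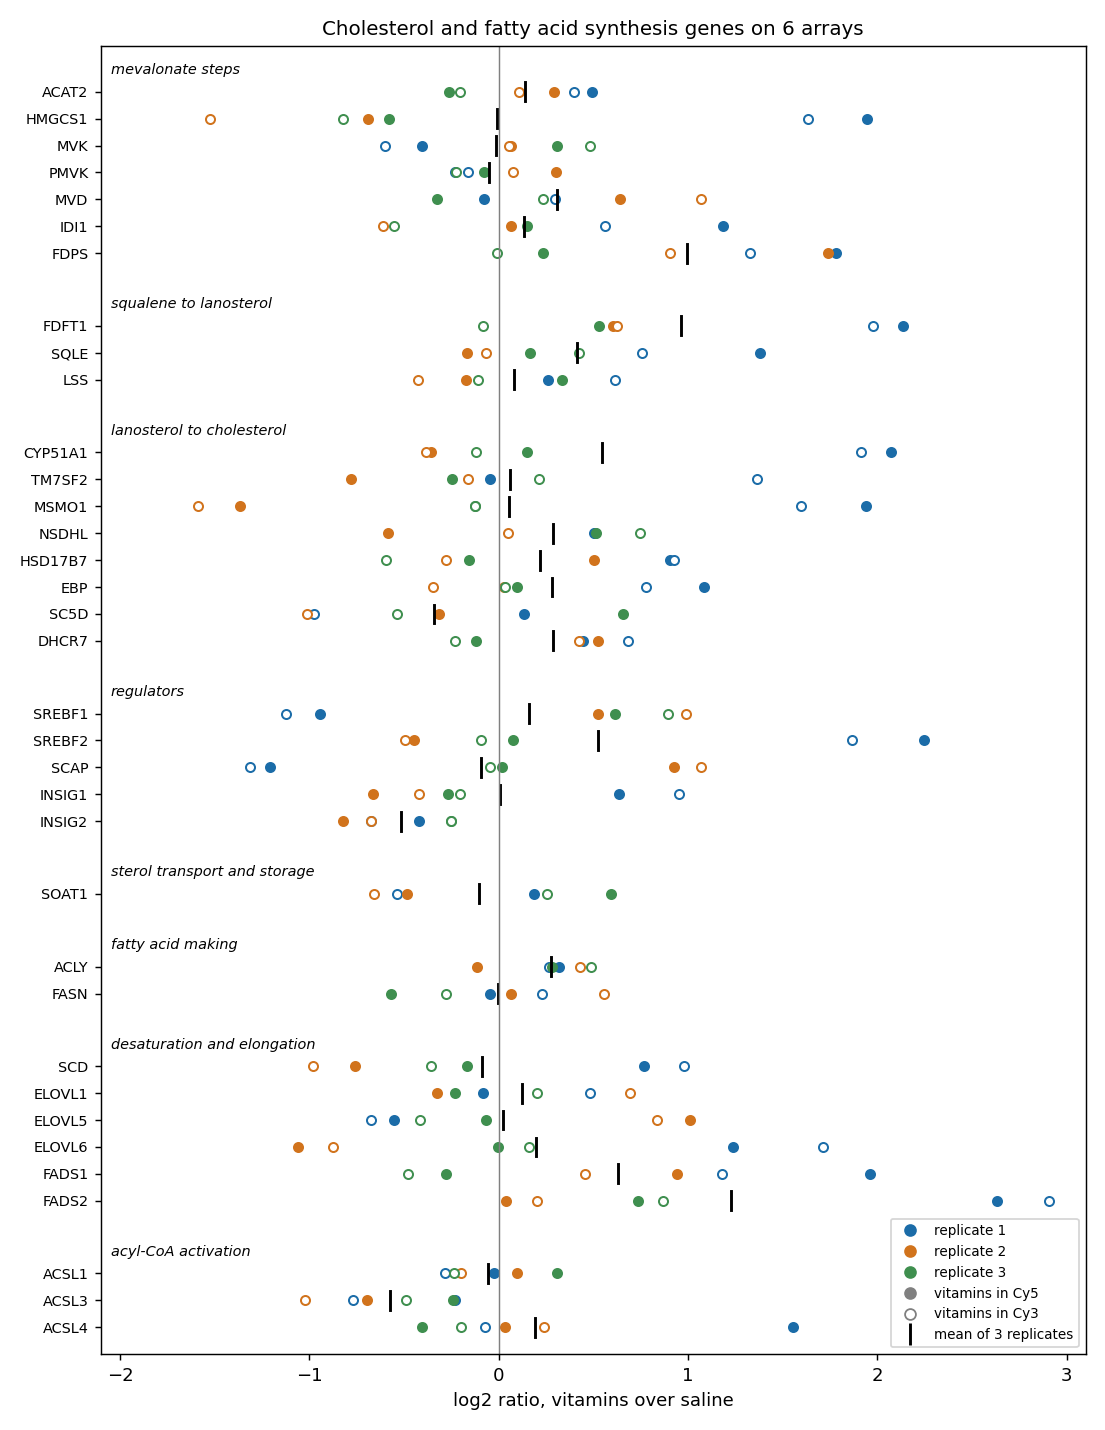
Log2 ratio of vitamins over saline of the 35 tested members on each of the 6 arrays, grouped by role; colours are replicates, filled points arrays with vitamins in Cy5, open points arrays with vitamins in Cy3, and black ticks the mean of 3 replicates. Both arrays of a replicate mostly lie close together, and replicate 1 lies far to the right for HMGCS1, FDFT1, CYP51A1, MSMO1, SREBF2 and FADS2.

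The mevalonate steps turn acetyl-CoA into farnesyl diphosphate, the branch point towards sterols. Of their 7 genes, 4 had a mean ratio above 0, and the median mean ratio was 0.13, against 0.0069 over all genes. FDPS, which makes farnesyl diphosphate, had levels of 13.33, 14.20 and 13.78 with vitamins and 11.78, 12.88 and 13.66 with saline. The groups overlapped, because the vitamin sample of replicate 1 was below the saline sample of replicate 3. Its ratios were 1.55, 1.32 and 0.11 in replicates 1 to 3, with a mean of 1.00 ± 0.77 (SD, n = 3), and lay above 0 on 5 of 6 arrays.

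HMGCS1, the cytosolic synthase that makes HMG-CoA, had ratios of different sign in different replicates. Its levels were 13.33, 13.94 and 14.30 with vitamins and 11.53, 15.05 and 15.003 with saline. All 3 vitamin levels lay between the low saline sample of replicate 1 and the other saline samples. The ratios were therefore 1.79, -1.11 and -0.70, with a mean of -0.0066 ± 1.57.

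IDI1, which converts one isoprenoid unit into the other, had ratios of 0.87, -0.27 and -0.20 and a mean of 0.13 ± 0.64. ACAT2, which joins acetyl-CoA units at the start of the route, had a mean of 0.14 ± 0.34, with ratios of 0.45, 0.20 and -0.23. MVD, the decarboxylase that forms the first isoprenoid unit, had 0.31 ± 0.48, with its highest ratio, 0.85, in replicate 2. Both kinases of mevalonate had means near 0, MVK at -0.014 ± 0.45 and PMVK at -0.052 ± 0.21. PMVK and MVD were dim, with 10 of 12 readings over background each.

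All 3 genes that lead from farnesyl diphosphate to lanosterol had mean ratios above 0, with a median of 0.42. FDFT1, squalene synthase, had levels of 12.06, 12.68 and 12.12 with vitamins and 10.00, 12.06 and 11.90 with saline. The saline sample of replicate 1 was low by itself, and the other 5 levels lay close together with a slight overlap of the groups. Its ratios were 2.06, 0.61 and 0.22, the mean 0.96 ± 0.97, or 0.42 without replicate 1. SQLE, the epoxidase that acts on squalene, had ratios of 1.07, -0.12 and 0.30 and a mean of 0.42 ± 0.60. LSS, which closes the rings to lanosterol, had 0.08 ± 0.37 and was over background in 10 of 12 readings.

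Of the 8 genes that turn lanosterol into cholesterol, 7 had a mean ratio above 0, with a median of 0.25 and none of 1 sign in all 3 replicates. Their replicate medians were 0.79, -0.32 and -0.00022. CYP51A1, the lanosterol demethylase, had levels of 14.41, 14.22 and 14.86 with vitamins and 12.41, 14.59 and 14.85 with saline. Only the saline sample of replicate 1 was apart, and the ratios were 1.99, -0.37 and 0.017, mean 0.55 ± 1.27. MSMO1, the methylsterol oxygenase that acts after it, had levels of 13.18, 13.85 and 14.97 with vitamins and 11.41, 15.33 and 15.09 with saline. Its ratios of 1.77, -1.48 and -0.12 cancelled to a mean of 0.06 ± 1.63, the widest SD among the members.

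The remaining enzymes of that stretch had smaller SDs. EBP, a sterol isomerase, had a mean of 0.28 ± 0.58, with ratios of 0.93, -0.16 and 0.07. NSDHL, which removes a carboxyl group from the sterol, had 0.29 ± 0.49, with ratios of 0.50, -0.27 and 0.63. DHCR7, the reductase of the last step to cholesterol, had 0.29 ± 0.40, with ratios of 0.56, 0.47 and -0.18.

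HSD17B7, a ketoreductase of the same stretch that also acts on estrone, had a mean of 0.22 ± 0.65. TM7SF2, a sterol reductase, had 0.06 ± 0.57. SC5D, a sterol desaturase, was the only member of this stretch with a mean below 0. Its ratios were -0.42, -0.66 and 0.06, with a mean of -0.34 ± 0.37. Its levels were 7.73, 8.73 and 9.09 with vitamins and 8.15, 9.39 and 9.04 with saline, and the groups overlapped. LBR, a sterol reductase listed outside the members, had ratios of -0.92, -0.16 and -0.52 and a mean of -0.54 ± 0.38.

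Among the 5 regulators, 3 mean ratios were above 0 and the median was 0.0059. SREBF2, which encodes the SREBP that mainly drives cholesterol genes, had levels of 14.61, 14.78 and 14.45 with vitamins and 12.56, 15.25 and 14.46 with saline. Its ratios of 2.06, -0.47 and -0.0094 had a mean of 0.53 ± 1.35. On this brightest probe the 3 vitamin levels fell within the range of the saline ones. As in HMGCS1, CYP51A1 and MSMO1, the ratio was highest in replicate 1 and lowest in replicate 2.

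SREBF1, which encodes the SREBPs that mainly drive fatty acid genes, ran the other way. Its levels were 10.29, 12.10 and 11.76 with vitamins and 11.32, 11.34 and 11.002 with saline, so the vitamin levels lay on both sides of the saline ones. The ratios were -1.03, 0.76 and 0.75 (mean 0.16 ± 1.03). The escort SCAP had levels of 8.84, 9.57 and 8.97 with vitamins and 10.10, 8.57 and 8.98 with saline, ratios of -1.26, 1.00 and -0.013, and a mean of -0.09 ± 1.13. Thus SREBF1 and SCAP were lower with vitamins in replicate 1, where SREBF2 was higher. In replicate 2 both were higher with vitamins, while SREBF2 was lower on its brightest probe but had 0.08 on its other tested one.

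The INSIG proteins hold SCAP in the endoplasmic reticulum. INSIG1, itself a sterol-regulated gene, had levels of 9.40, 10.44 and 10.78 with vitamins and 8.61, 10.98 and 11.02 with saline. Its ratios were 0.79, -0.54 and -0.23, mean 0.0059 ± 0.70. INSIG2 had levels of 9.75, 9.64 and 10.19 with vitamins and 10.30, 10.39 and 10.44 with saline. Every vitamin level lay below every saline level, as in 3.39% of all genes, and no other member did so. The ratios were -0.55, -0.75 and -0.25 and the mean -0.52 ± 0.25, 1.43-fold lower with vitamins, which did not pass after adjustment.

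Of the genes that move and store sterol, SOAT1, which esterifies cholesterol for storage, had ratios of -0.17, -0.57 and 0.43 and a mean of -0.11 ± 0.50. STARD4, a carrier of cholesterol between membranes, was over background in at most 2 of 12 readings on any of its 3 probes and was not tested.

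Fatty acid making was only partly measured. The acetyl-CoA carboxylases ACACA and ACACB, which commit acetyl-CoA to fatty acids, were over background in at most 4 of 12 readings and were not tested. ACLY, which releases acetyl-CoA from citrate, had levels of 12.24, 12.41 and 12.30 with vitamins and 11.95, 12.25 and 11.92 with saline. Its ratios of 0.29, 0.16 and 0.38 were small and even, with a mean of 0.28 ± 0.11, although 1 of its 6 arrays was below 0. FASN, the fatty acid synthase, was dim and had a mean of -0.0055 ± 0.38.

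In the desaturation and elongation group, 5 of 6 mean ratios were above 0, and the median ratio was 1.17 in replicate 1, 0.15 in replicate 2 and -0.13 in replicate 3. FADS2, a desaturase of polyunsaturated fatty acids, had levels of 13.12, 12.67 and 12.98 with vitamins and 10.35, 12.55 and 12.18 with saline. Every vitamin level was above every saline level, as in 2.93% of all genes. No other member showed this on its brightest probe, but a dimmer probe of FDPS did. The ratios were 2.77, 0.12 and 0.80, and the mean of 1.23 ± 1.38, 2.35-fold, was the largest of the members. Without replicate 1 the mean ratio of FADS2 was 0.46. FADS1, the desaturase that acts after it, had ratios of 1.57, 0.70 and -0.38 and a mean of 0.63 ± 0.98.

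SCD, which puts a double bond into saturated fatty acids, had levels of 13.98, 14.86 and 15.45 with vitamins and 13.10, 15.73 and 15.71 with saline. The vitamin levels again lay inside the range of the saline levels, with ratios of 0.87, -0.87 and -0.26 and a mean of -0.09 ± 0.88. ELOVL6, which lengthens saturated and monounsaturated chains, had ratios of 1.48, -0.97 and 0.08 and a mean of 0.20 ± 1.22. On its brightest probe, ELOVL5, an elongase of polyunsaturated chains, went the other way in replicates 1 and 2. Its ratios were -0.61, 0.92 and -0.24, with a mean of 0.02 ± 0.80. ELOVL1, an elongase of very long chains, had 0.12 ± 0.12.

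The acyl-CoA synthetases attach coenzyme A to fatty acids before use. ACSL3 had levels of 10.40, 10.80 and 11.54 with vitamins and 10.90, 11.66 and 11.91 with saline. Within each replicate the vitamin sample was the lower one, while the groups overlapped across replicates. Its ratios were -0.50, -0.86 and -0.37, mean -0.57 ± 0.25, 1.49-fold lower with vitamins. Its unadjusted p was the lowest among the brightest probes of the members. ACSL4 had a mean of 0.19 ± 0.52 and ACSL1 a mean of -0.06 ± 0.10.

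**Figure D2:**
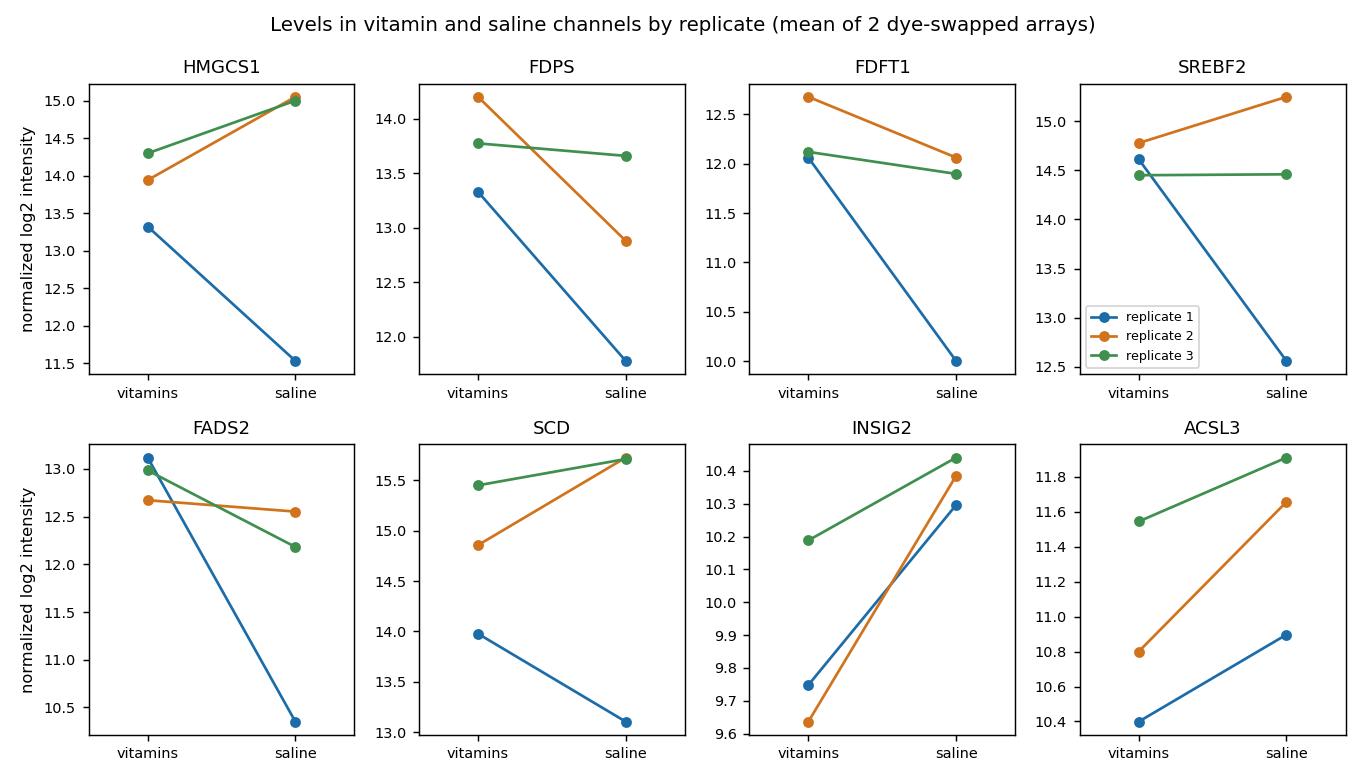
Normalized log2 intensity of 8 members in the vitamin and saline samples of each replicate; a line joins both samples of a replicate, each the mean of 2 dye-swapped arrays, and each panel has its own axis. The saline sample of replicate 1 is the lowest of 6 for HMGCS1, FDPS, FDFT1, SREBF2, FADS2 and SCD, while all 3 lines of INSIG2 and ACSL3 run up from vitamins to saline.

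Set against each other, the arms did not differ beyond the spread between replicates. The cholesterol arm had a median mean ratio of 0.18, with 14 of 18 genes above 0, or 12 of 18 with arrays centred on their median in place of loess. The fatty acid arm had a median of 0.12, with 7 of 11 above 0, and the median over all genes was 0.0069. By replicate, the medians were 0.77, -0.14 and -0.00022 for the cholesterol arm and 0.29, 0.14 and -0.24 for the fatty acid arm. The difference, cholesterol minus fatty acid, was 0.48, -0.27 and 0.24, a mean of 0.15 ± 0.38. It was above 0 in replicates 1 and 3 and below 0 in replicate 2, and no test was run on a score over chosen genes.

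Replicate 1 held most of the cholesterol arm's shift. The ratio was highest in replicate 1 for 13 of its 18 genes, and for 6 of 11 in the fatty acid arm. The share over all genes was not computed for this count. In replicate 1, 12 of 18 cholesterol genes had a ratio of at least 0.5, 66.7%, against 16.6% of all genes. In replicate 2 the share was 3 of 18, against 18.6% of all genes, and in replicate 3 it was 1 of 18, against 11.2%. Without replicate 1, the median was -0.03 in the cholesterol arm with 8 of 18 above 0, and -0.0061 in the fatty acid arm with 5 of 11 above 0. In 15 of 35 members the mean ratio then had the other sign.

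**Figure D3:**
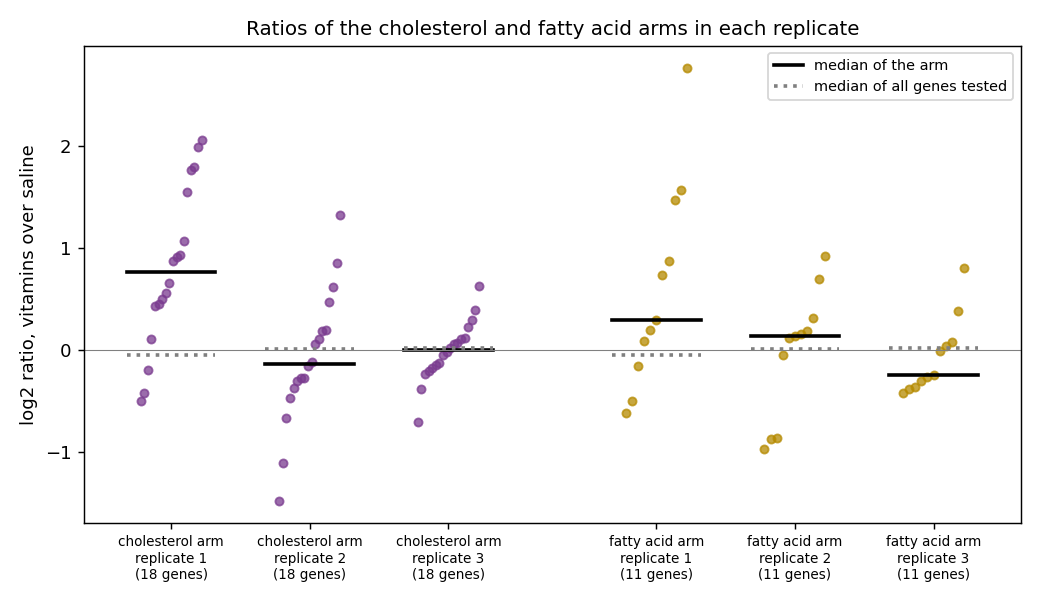
Log2 ratio of vitamins over saline of each tested gene of the cholesterol arm (18 genes) and the fatty acid arm (11 genes) in each replicate, sorted within a replicate, with the arm's median as a black line and the median of all genes tested as a dotted line. The cholesterol arm sits at a median of 0.77 in replicate 1 and near or below 0 in replicates 2 and 3.

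The dye-swapped arrays were paired by their correlation, since the labels do not pair them, so closeness within a pair was favoured by that choice and supports nothing. The median absolute difference between both arrays was 0.26 over members, against a median SD between replicates of 0.58. Over all genes, the same values were 0.30 and 0.39. Across the 18 cholesterol genes, which are not independent, the arrays of a pair correlated at 0.80, 0.79 and 0.32 in replicates 1 to 3. In replicate 1, 13 of 18 cholesterol genes were above 0 on both arrays, 72.2%, against 33.3% of all genes. The arrays of a pair are held to share both RNA samples, so they are technical repeats.

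On the scale of levels, the cholesterol genes were lowest in the saline sample of replicate 1, and its vitamin sample was low as well. The arm's median level in replicate 1 was 9.84 with saline and 10.43 with vitamins. In replicates 2 and 3 it was 11.22 and 11.54 with saline, and 11.38 and 11.36 with vitamins. Over all genes, the medians ran from 8.63 to 8.87, which the normalization keeps close together. The saline sample of replicate 1 held the lowest of the 6 levels for 13 of 18 cholesterol genes (72.2%). It did so for 3 of 11 fatty acid genes (27.3%), against 19.4% of all genes. The SD over 3 samples had a median of 0.41 in vitamin samples and 0.69 in saline samples over the cholesterol arm. Over all genes these medians were 0.33 and 0.31. The saline SD was the larger for 13 of 18 cholesterol genes, against 48.0% of all genes.

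The same saline sample was the lowest of 6 for 11 of 14 granulosa markers (78.6%) and the highest of 6 for all 20 leukocyte markers. Over all genes tested it was the lowest for 19.4% and the highest for 2374 of 10946. The log2 of the summed leukocyte marker level ranged from 12.7 to 13.6 in vitamin samples and from 11.8 to 16.8 in saline samples, the highest being that of replicate 1. No leukocyte marker tested was without a detected reading in either group, and 11 of 20 were over background in all 6 vitamin readings, 7 of 20 in all 6 saline readings. The median leukocyte ratio was -2.55 in replicate 1, 1.13 in replicate 2 and -0.08 in replicate 3, the reverse of the order of the cholesterol arm in replicates 1 and 2. Epithelium markers had a median ratio of 3.82 in replicate 2, against -0.19 in replicate 1 and 0.16 in replicate 3. The log2 of their summed level was high in both samples of replicate 1, 15.67 with vitamins and 16.05 with saline. With vitamins it was 15.91 in replicate 2 and 11.24 in replicate 3, and with saline 10.56 and 10.95. Their median level in replicate 1 was 7.99 with vitamins and 10.34 with saline. The part of these other cells in the values of the pathway genes was not tested.

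**Figure D4:**
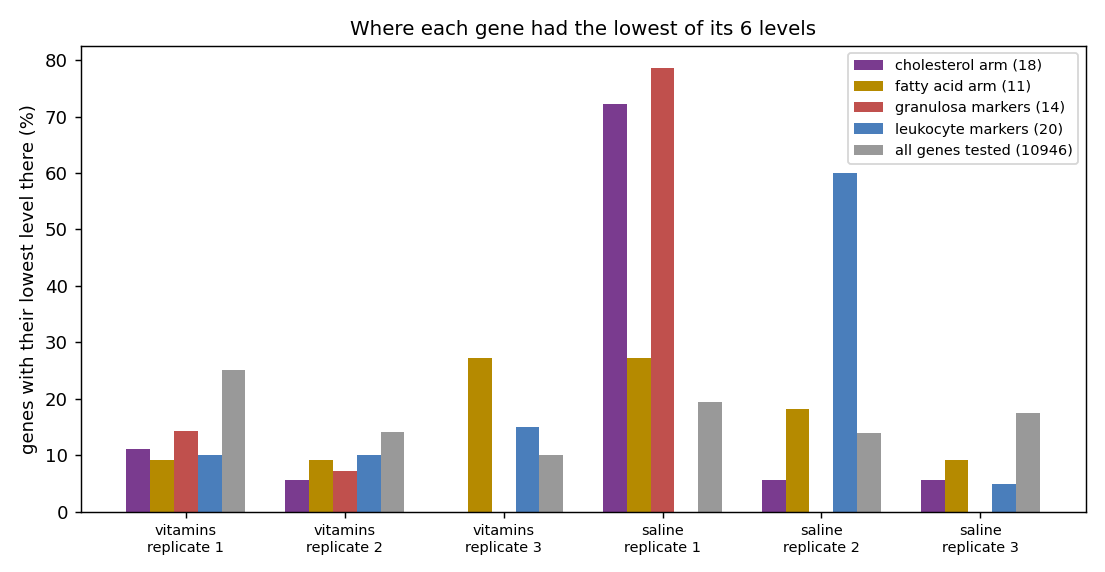
Percent of the genes of each list whose lowest of 6 levels was in the given sample, for the cholesterol arm, the fatty acid arm, granulosa markers, leukocyte markers and all genes tested, with vitamin samples on the left and saline samples on the right. The saline sample of replicate 1 holds the lowest level of 72.2% of the cholesterol arm and 78.6% of the granulosa markers, against 19.4% of all genes.

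Where a gene had several probes, the brightest gave the values above. In replicate 1, the dimmer probes of HMGCS1, FDPS, CYP51A1 and MSMO1 gave smaller ratios than the brightest one, except 1 probe of MSMO1. FDPS had 4 tested probes, whose mean ratios ran from 0.12 to 1.00, and 3 of the 4 were above 0 in all 3 replicates. MSMO1 had 4, from -0.0052 to 0.20, each highest in replicate 1. CYP51A1 had 3, from -0.06 to 0.55, and HMGCS1 had 3, from -0.0066 to 0.18. The only other tested probe of SREBF2 had ratios of 2.27, 0.08 and -0.21, in replicate 1 larger than that of its brightest probe. That probe had levels of 14.58, 13.07 and 12.48 with vitamins and 12.31, 12.995 and 12.69 with saline. Its vitamin levels were not all within the saline range. ELOVL6 ran from -0.29 to 0.20 over 3 probes, FADS1 from 0.21 to 0.63 over its pair and PMVK from -0.052 to 0.07. ELOVL5 ran from 0.02 to 0.11 over 3 probes. Of its dimmer probes, 1 had ratios of 0.52, -0.08 and -0.10, of the other sign than the brightest in replicates 1 and 2. The other had -0.54, 0.28 and 0.42.

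The second probes of FDFT1 and INSIG2 had means of 0.17 and -0.13, against 0.96 and -0.52 on the bright ones. Neither second probe was of 1 sign, with ratios of 0.49, -0.0038 and 0.03 for FDFT1 and 0.02, -0.10 and -0.30 for INSIG2. For ACSL3 the other probes had means of -0.12 and -0.04, and a ratio above 0 in replicates 2 and 3, unlike the bright probe. The ratios of 1 sign in FDFT1, INSIG2 and ACSL3 thus rested on 1 probe each. Those of ACLY and FADS2 did so too, since these genes had only 1 probe on the array.

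**Figure D5:**
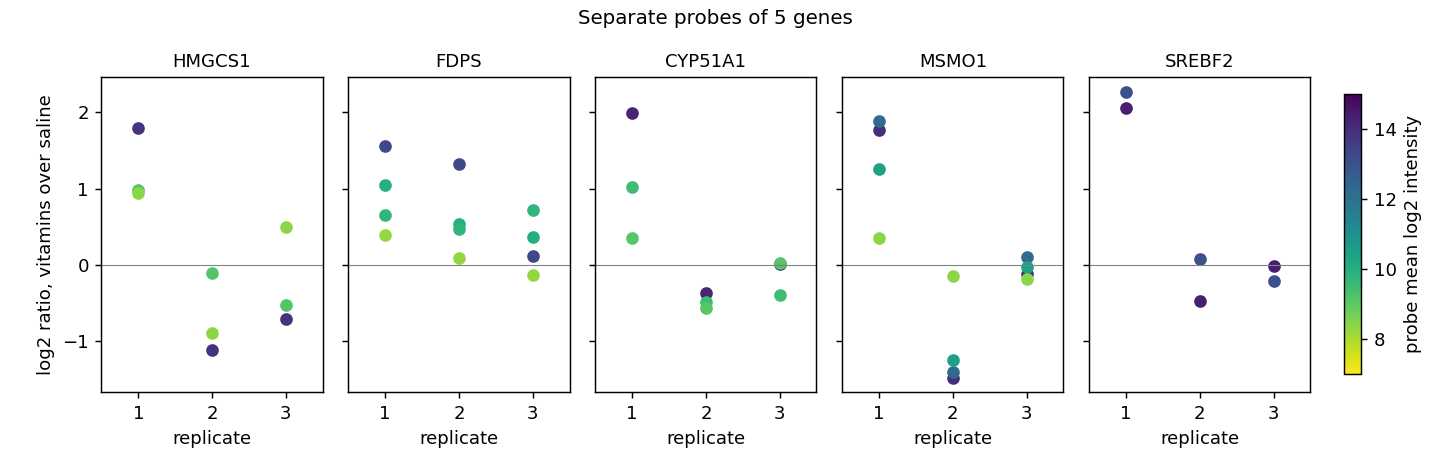
Log2 ratio of vitamins over saline of each tested probe of HMGCS1, FDPS, CYP51A1, MSMO1 and SREBF2 in replicates 1 to 3, coloured by the probe's mean log2 intensity. All probes of these 5 genes are above 0 in replicate 1, and the dimmer ones lie nearer to 0 there for HMGCS1, FDPS and CYP51A1.

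The orientation of the dyes moved some members, as it did other probes of the array. A limma test of the ratio with vitamins in Cy5 minus that with vitamins in Cy3 called 1756 of 26605 probes, 6.6%. It called 3 of the 35 tested members on their brightest probes, a share near that of all probes. SC5D differed by 1.00 (adjusted p = 0.0072, with mean ratios of 0.16 with vitamins in Cy5 and -0.84 with vitamins in Cy3). TM7SF2 differed by -0.83 (adjusted p = 0.032) and IDI1 by 0.67 (adjusted p = 0.044). A dimmer probe of ELOVL5 was called by the same test, with a difference of 0.84 (adjusted p = 0.026). A replicate's mean over both orientations cancels such a difference.

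Other genes of these pathways were listed beside the members. Among them were 26 further genes of cholesterol synthesis, uptake, efflux, side branches and control. Of these, 13 were tested and 3 had a mean ratio above 0. The median over the 13 was -0.15, with replicate medians of -0.59, -0.04 and 0.21. The lowest unadjusted p in the lower direction was that of NPC1, which exports cholesterol from lysosomes, with ratios of -0.34, -0.77 and -0.67 (mean -0.59 ± 0.22). In the higher direction it was NR1H2, a liver X receptor, with 0.17, 1.63 and 0.20 (mean 0.67 ± 0.83).

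Of 40 further fatty acid genes, 29 were tested and 20 had a mean above 0, with a median of 0.10. ACSBG1, an acyl-CoA synthetase, had the lowest unadjusted p in the higher direction, with ratios of 0.37, 0.71 and 1.71 (mean 0.93 ± 0.69). In the lower direction it was CBR4, a reductase of mitochondrial fatty acid synthesis, with -0.65, -0.48 and -0.08 (mean -0.40 ± 0.29). None of these genes passed after adjustment.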

How the data were processed

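RNA was extracted, amplified in rounds of T7 transcription and labelled with Cy3 and Cy5 by ULS chemistry, per the labels' protocols. Amplification can distort ratios in a way that both arrays of a pair share. The deposited scanner files hold median spot and background intensities, per the file headers. The authors also deposited log2 ratios, of which the sources used here name no background correction or normalization. Their columns correlated with the ratios computed here at r = 0.861 to 0.962, with slopes of 0.713 to 0.982 and medians of -0.018, -0.0067, -0.0035, 0.0014, 0.0053 and 0.015 over arrays, so their direction is vitamins over saline. They were used as an alternative only.

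With R 4.3.3 and limma 3.58.1, intensities were corrected by normexp (offset 50) and normalized by loess within arrays, with control spots at weight 0. The image analysis had marked 2 to 70 gene spots per array to be ignored, and these stayed out. Levels were computed from the ratio and the average intensity of both channels. Aquantile normalization gave that average the same distribution on every array and left the ratios as they were. The labels do not pair the arrays. Each array was therefore matched to one of the opposite orientation so that the correlations of centred ratios summed to the most, 2.26 against 0.699 for the next choice, which gave arrays 1 and 2, 3 and 4, and 5 and 6. A probe was tested if at least 6 of its 12 readings passed the mean plus 2 SD of 153 negative-control spots, which 23269 to 30104 probes did per channel. Precision is limited by how few arrays there are.

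A two-sided moderated test (lmFit, eBayes) set the 3 ratios against 0, and p-values were adjusted by Benjamini-Hochberg over 26713 probes. The brightest tested probe stood for a gene. MSMO1 and SC5D came from older symbols. Of 21790 named probes, 20025 had a current RefSeq symbol (ARS-UCD2.0) and 1524 were updated, and 22004 probes had no symbol. Every tested member was named, with replicate values and levels for members of 1 sign, the 3 of lowest unadjusted p in each arm and all regulators; a few others were added after their values were seen. The members and the lists were chosen with earlier results of these data known. Promoter and protein sequences were not used here.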

Additional observations from a re-analysis of the deposited data

Results flagged for a closer look

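ELOVL1, an elongase of very long fatty acid chains, had opposite signs in the dye orientations. Its mean log2 ratio was -0.212 over the 3 arrays with vitamins in Cy5, each below 0, and 0.460 over the 3 arrays with vitamins in Cy3, each above 0. Among all genes, 471 of 10946 (4.30%) showed such a full split, and ELOVL1 was the only 1 of the tested members to do so. In limma's test of the difference between orientations its adjusted p was 0.053. Its small mean of 0.12 ± 0.12 (SD, n = 3) therefore averages values of opposite sign.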

How the results depend on the processing

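No member passed an adjusted p of 0.05 in the 17 of 18 alternative settings that allow a test. The smallest adjusted p of a member was 0.152, for ACSL3, with the 6 arrays fitted by limma with a dye term and no pairing; that fit treats technical arrays as replicates and called 83 probes, none of them members, against 0 of 26713. With the pair as a random block it called 0. The cholesterol arm's median was 0.77 and the arms' difference 0.48 on the slide of replicate 1 alone. With slide as a block the medians were 0.35 and 0.15, and on the other slide alone -0.03 and -0.0061. Cholesterol genes above 0 in all replicates numbered 2 of 18, beside 12.7% of all genes, but 4 on the arrays with vitamins in Cy5 alone (15.8% of all genes). Fatty acid genes numbered 2 of 11, but 0 with median centring (10.7%), 1 in the authors' table (12.0%) and 1 with vitamins in Cy5 alone. Leaving out a replicate can only keep or raise such counts: they were 3 to 7 and 2 to 6, beside 22.2% to 29.7% of all genes. These counts have no value for the slide of replicate 1 alone or the 6-array fits. The arms' difference was below 0 with vitamins in Cy3 alone (-0.04) and without replicate 1 (-0.03). FDPS, FDFT1, SQLE, MVD, NSDHL, DHCR7, INSIG2, ACLY, FADS1, FADS2 and ACSL3 kept their sign in every setting run. The causes were not tested. The test of replicate ratios against 0 is itself paired within replicates.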
